A study of Homo sapiens with 21 samples.

Results

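The 10 genes described here encode transcription factors of epithelial-to-mesenchymal transition (EMT) and of the mesenchymal state: SNAI1, SNAI2, TWIST1, ZEB1, ZEB2, PRRX1, RUNX1, RUNX2, FOSL1 and FOSL2. They were taken by symbol, whatever their values, and each symbol was found once among the 60728 genes of the deposited table. SNAI, TWIST and ZEB proteins bind E-box motifs and are known for repressing epithelial adhesion genes during EMT and neural crest migration. PRRX1 is a homeodomain factor, RUNX proteins act with the partner CBFB, and FOSL1 and FOSL2 pair with JUN proteins to form the dimer AP-1. Neuroblastoma arises from the neural crest and not from an epithelium, and its cells are described as adrenergic or mesenchymal, the second state being marked by several of these factors.

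RNA-Seq was made from SK-N-BE(2), an established human neuroblastoma cell line, 72 h after transduction with lentivirus that encodes short hairpin RNAs (shRNAs), which lower the level of a target transcript. ARID1A and ARID1B, the silenced genes, encode alternative subunits of the BAF chromatin remodelling complex, and the comparisons ask which transcripts move when one or both are lowered. The 7 conditions had 3 libraries each: a non-silencing shRNA (Control), the pairs of shRNAs shARID1A/B.2.3 and shARID1A/B.4.2, the single shRNAs shARID1B.2 and shARID1B.3, and the single shRNAs shARID1A.2 and shARID1A.4. All of them are this 1 line, the control cells were transduced as well, and the labels do not say whether the 3 libraries of a condition came from separate cultures, so p-values measure the spread between libraries, which may be technical.

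The targets did not follow the labels, and the labels are used below as written. ARID1A averaged 6312 ± 191 in the control libraries (SD, n = 3, as for all means here), 2146 ± 32.1 in shARID1A.2, 2243 ± 74.8 in shARID1A.4, 1920 ± 40.2 in shARID1B.2 and 2479 ± 28.5 in shARID1B.3, but 5659 ± 130 in shARID1A/B.2.3 and 5440 ± 130 in shARID1A/B.4.2. ARID1B had 5796 ± 7.47 in the control, 2241 ± 15.3 in shARID1A.2, 3100 ± 31.5 in shARID1A.4, 2599 ± 55.5 in shARID1A/B.2.3 and 1907 ± 41.3 in shARID1A/B.4.2, but 5004 ± 78.9 in shARID1B.2 and 6091 ± 79.2 in shARID1B.3. Both transcripts were therefore low in the libraries labelled shARID1A, mainly ARID1A in those labelled shARID1B, and mainly ARID1B in those labelled shARID1A/B. Every direction below is that of the libraries with the label, not of a silenced gene.

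Values are reads divided by 1 size factor per library, from 27954334 to 41077638 reads per library. Fold changes are differences of log2(value + 1), tested with limma over 18584 genes with Benjamini-Hochberg adjustment, and a gene is called at an adjusted p under 0.05. All 9 markers of adrenergic neuroblasts were expressed in the control. CDH1, the epithelial cadherin, stayed at no more than 7 reads in any library, and SOX10, a Schwann cell factor, was at 0 in all 21. However, 4 of 5 epithelial and 3 of 5 Schwann markers had a control mean of at least 10. Fibroblast genes such as COL1A1 and LUM were also expressed, and the sum of 9 fibroblast markers ranged from 36911 to 37433 in the control libraries and was lower in every other library, at 13480 to 35255. Of these 9 markers, 7 had a control mean of at least 10. FAP, with at most 3 reads, was the 1 under 10 reads in every library. Single markers moved in both directions. In shARID1B.2, 3 of the 8 tested fell and 3 rose, and DCN fell in 3 of the 6 silenced conditions and rose in 3. The part of other cells in the results was not tested, and in bulk RNA fewer cells of a type cannot be told apart from less RNA per cell.

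Of the 10 factors, 9 were tested, and TWIST1 and ZEB2 were the 2 that fell in all 6 silenced conditions. The number that fell was 8 in shARID1A.2, where 38.2% of all genes tested were called lower, 6 in shARID1A.4 (36.6%), 6 in shARID1B.2 (34.0%), 6 in shARID1B.3 (32.0%), 4 in shARID1A/B.2.3 (34.0%) and 8 in shARID1A/B.4.2 (36.1%). The number that rose was 1 in shARID1A.2, where 37.9% of genes tested were called higher, 3 in shARID1A.4 (37.0%), 4 in shARID1A/B.2.3 (35.2%) and 0 in shARID1B.2 (31.6%), shARID1B.3 (31.9%) and shARID1A/B.4.2 (35.1%). The zeros are limma's and were also 0 at an unadjusted p under 0.05 and with DESeq2. By contrast, edgeR called SNAI1 higher in shARID1B.2, by 0.14, and 0 genes in the other 2. Fitted to only the libraries compared, limma called SNAI1 (0.11, adjusted p = 0.045) and SNAI2 (0.16, adjusted p = 0.026) higher in shARID1B.2. The 6 comparisons share the control libraries. RUNX2, 1 of the falls in 5 of them, passed the filter on low values mainly through the control and shARID1B.3, where it is high. By more than 1 on the log2 scale, 6 of the 9 fell in shARID1A.2 (10.7% of genes tested did), 2 in shARID1A.4 (12.0%), 2 in shARID1B.2 (5.12%), 1 in shARID1B.3 (6.58%), 2 in shARID1A/B.2.3 (9.10%) and 4 in shARID1A/B.4.2 (8.14%). The median log2 fold change of the 9 genes was -1.45, -0.71, -0.21, -0.18, -0.23 and -0.96 in the same order, beside 0.01 to 0.02 for all genes tested.

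**Figure D1:**
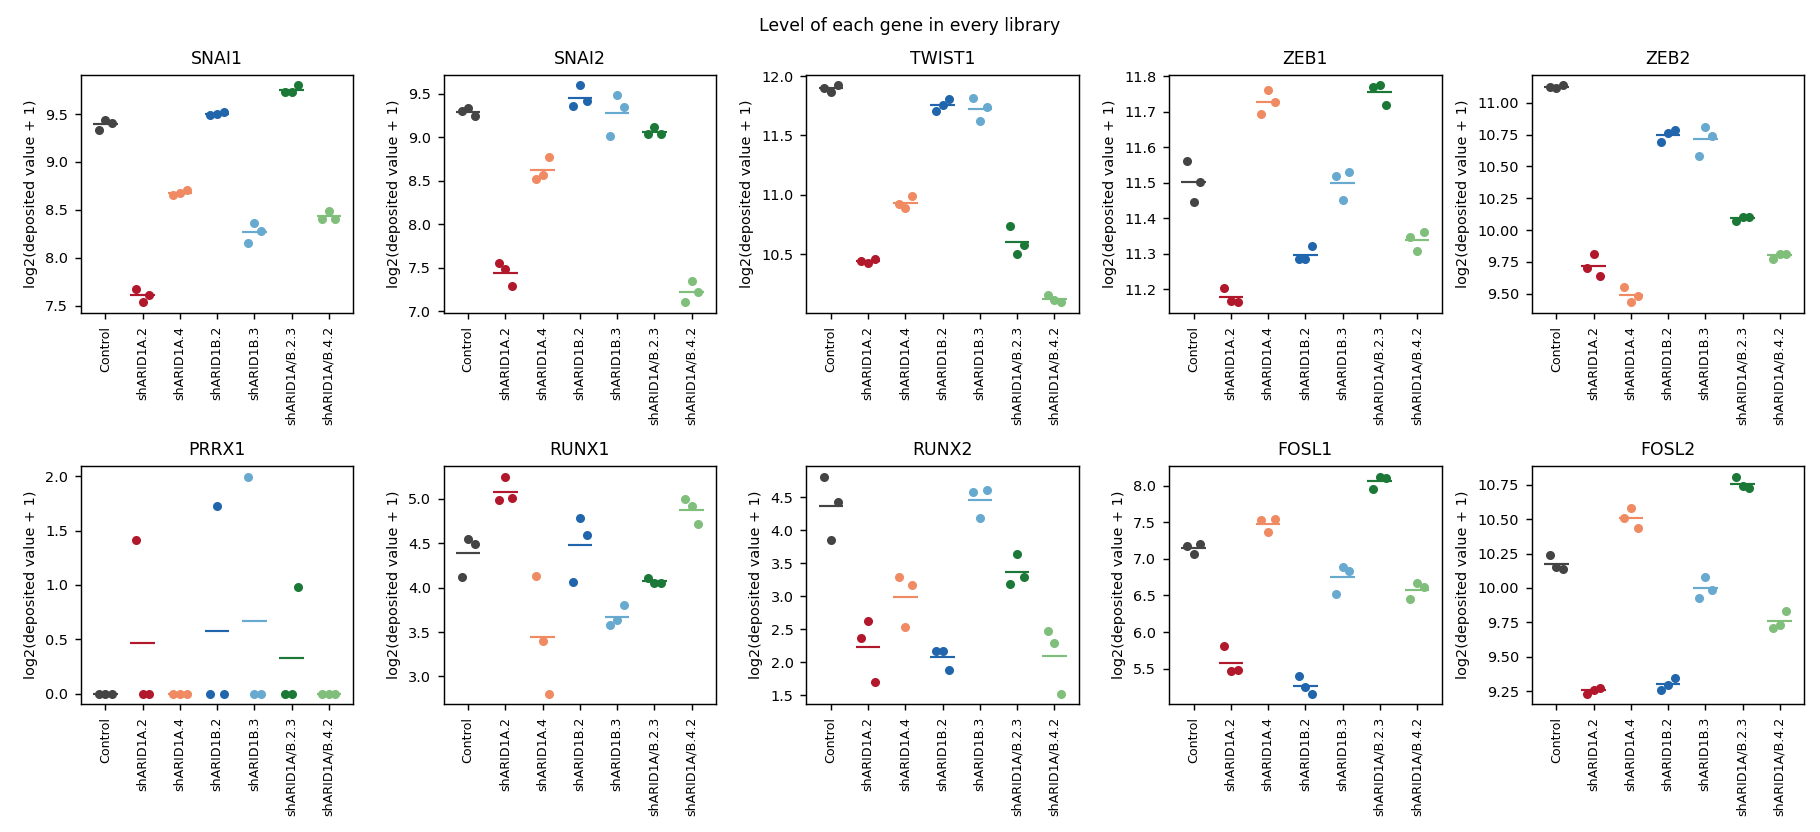
Level of each of the 10 factors, as log2(deposited value + 1), in the 3 libraries of each of 7 conditions; points are libraries, short lines are means, and each panel has its own vertical range. TWIST1 and ZEB2 lie below the control in every other library, whereas SNAI1, FOSL1, FOSL2 and ZEB1 lie above it in shARID1A/B.2.3 and below it in shARID1A/B.4.2.

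The scale of the values bears on small changes. Scaling to total reads raised the median log2 fold change of all genes by 0.17 in shARID1A.2, 0.13 in shARID1B.2 and 0.18 in shARID1A/B.4.2, and by 0.02 to 0.03 in the other 3 conditions. The share of lower genes among all calls was then 38.8% against 50.2% in shARID1A.2, 37.0% against 51.9% in shARID1B.2 and 35.2% against 50.7% in shARID1A/B.4.2. Among the factors, ZEB1 in shARID1A/B.4.2 went from -0.16 to 0.02 and TWIST1 in shARID1B.2 from -0.14 to -0.0021, and both calls were lost. SNAI2 in shARID1A/B.2.3 was then -0.19 and no longer called, and SNAI1 (0.25) and SNAI2 (0.30) in shARID1B.2 and RUNX1 (0.67) in shARID1A/B.4.2 became called. Smaller but still called were ZEB1 in shARID1A.2 (-0.15) and shARID1B.2 (-0.07), ZEB2 in shARID1B.2 (-0.24) and FOSL2 in shARID1A/B.4.2 (-0.23).

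SNAI1 (chromosome 20, 49982999 to 49988886, GRCh38, GENCODE release 29) encodes Snail, a zinc-finger repressor of CDH1. Its values were 644, 694 and 677 in the control libraries, 204, 184 and 195 in shARID1A.2, and 403, 407 and 417 in shARID1A.4. They were 718, 724 and 734 in shARID1B.2 and 285, 329 and 309 in shARID1B.3. They were 852, 849 and 890 in shARID1A/B.2.3 and 337, 359 and 339 in shARID1A/B.4.2. The 7 conditions did not overlap with one another in SNAI1, and within each label one condition lay well above the other. SNAI1 fell by 1.78 on the log2 scale in shARID1A.2, by 0.71 in shARID1A.4, by 1.13 in shARID1B.3 and by 0.96 in shARID1A/B.4.2, and rose by 0.36 in shARID1A/B.2.3 (standard error 0.05 and adjusted p of at most 2.33e-06 in each, limma). In shARID1B.2 the difference was 0.11 (adjusted p = 0.079, limma). The conditions of 1 label differed by -1.07 for shARID1A.2 against shARID1A.4, by 1.24 for shARID1B.2 against shARID1B.3 and by 1.32 for shARID1A/B.2.3 against shARID1A/B.4.2, all called.

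SNAI2 (chromosome 8, 48917604 to 48921740) encodes Slug, the related repressor that marks migrating neural crest. It had 632, 646 and 606 in the control, 187, 179 and 156 in shARID1A.2, and 368, 379 and 438 in shARID1A.4. It had 655, 774 and 685 in shARID1B.2 and 517, 718 and 654 in shARID1B.3. In shARID1A/B.2.3 it had 527, 557 and 524, and in shARID1A/B.4.2 it had 137, 162 and 148. The lowest levels were thus in shARID1A.2 and shARID1A/B.4.2, which overlapped. The libraries of shARID1B.3 overlapped with the control, and those of shARID1B.2 lay just above it. SNAI2 fell by 1.85 on the log2 scale in shARID1A.2, by 0.67 in shARID1A.4 and by 2.07 in shARID1A/B.4.2 (standard error 0.10, adjusted p of at most 1.09e-06, limma). Its fall of 0.23 in shARID1A/B.2.3 was close to the threshold (adjusted p = 0.041, limma), and the call was lost without control replicate 1 or 2 or without shARID1A/B.2.3 replicate 1 or 3, where the values were -0.22, -0.21, -0.21 and -0.21. The differences in shARID1B.2, 0.16 (95% interval -0.04 to 0.36), and in shARID1B.3, -0.0092 (-0.21 to 0.19), were not called. shARID1A/B.2.3 was higher than shARID1A/B.4.2 by 1.84 and shARID1A.2 lower than shARID1A.4 by 1.18.

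TWIST1 (chromosome 7, 19020991 to 19117672) encodes a basic helix-loop-helix factor of neural crest mesenchyme that works with E proteins. Its values were 3811, 3739 and 3877 in the control, 1387, 1377 and 1403 in shARID1A.2, and 1936, 1888 and 2031 in shARID1A.4. They were 3343, 3459 and 3583 in shARID1B.2 and 3610, 3144 and 3418 in shARID1B.3. They were 1705, 1443 and 1528 in shARID1A/B.2.3 and 1140, 1108 and 1091 in shARID1A/B.4.2. The order from high to low was control, shARID1B.2, shARID1B.3, shARID1A.4, shARID1A/B.2.3, shARID1A.2 and shARID1A/B.4.2, and only the shARID1B conditions overlapped with their neighbour in it. TWIST1 fell by 1.45, 0.96, 1.29 and 1.77 on the log2 scale in shARID1A.2, shARID1A.4, shARID1A/B.2.3 and shARID1A/B.4.2 (standard error 0.05, adjusted p of at most 2.95e-15, limma), the 4 conditions in which ARID1B was low. In shARID1B.2 it fell by 0.14 (adjusted p = 0.014, limma) and in shARID1B.3 by 0.17 (adjusted p = 0.0034, limma). The first of these calls was also lost without control replicate 3 (-0.13) or without shARID1B.2 replicate 1 (-0.11).

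ZEB2 (chromosome 2, 144364364 to 144524583), a zinc-finger homeodomain repressor also needed for neural crest formation, had 2232, 2213 and 2250 in the control, 833, 898 and 796 in shARID1A.2, and 751, 690 and 714 in shARID1A.4. It had 1655, 1738 and 1762 in shARID1B.2 and 1532, 1795 and 1712 in shARID1B.3. It had 1077, 1099 and 1097 in shARID1A/B.2.3 and 875, 900 and 898 in shARID1A/B.4.2. All 18 silenced libraries lay below the lowest control. ZEB2 fell by 1.41, 1.64, 0.38, 0.41, 1.03 and 1.32 on the log2 scale, in the order in which the silenced conditions were just given (standard error 0.05, adjusted p of at most 2.03e-07, limma). Between shARID1B.2 and shARID1B.3, where SNAI1 differed by 1.24, ZEB2 differed by 0.04 (95% interval -0.06 to 0.13), which was not called but was 0.14 and called with scaling to total reads.

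ZEB1 (chromosome 10, 31318495 to 31529814), the relative of ZEB2, moved less. It had 3021, 2791 and 2898 in the control, and over all libraries it ranged from 2293 in shARID1A.2 to 3501 in shARID1A/B.2.3. ZEB1 rose by 0.22 in shARID1A.4 and by 0.25 in shARID1A/B.2.3 and fell by 0.33 in shARID1A.2 and by 0.21 in shARID1B.2 (standard error 0.03, adjusted p of at most 1.62e-06, limma). The fall of 0.16 in shARID1A/B.4.2 is the one that turned with scaling to total reads, and in shARID1B.3 the difference was -0.0036 (95% interval -0.07 to 0.06). Antisense genes overlap the exons of TWIST1 (AC003986.2, 141 bases), ZEB1 (ZEB1-AS1, 366 bases) and ZEB2 (ZEB2-AS1, 1299 bases). Their own values reached 137, 275 and 12.4 at most, and whether the counting used the strand of these stranded libraries is not given in the sources used here.

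**Figure D2:**
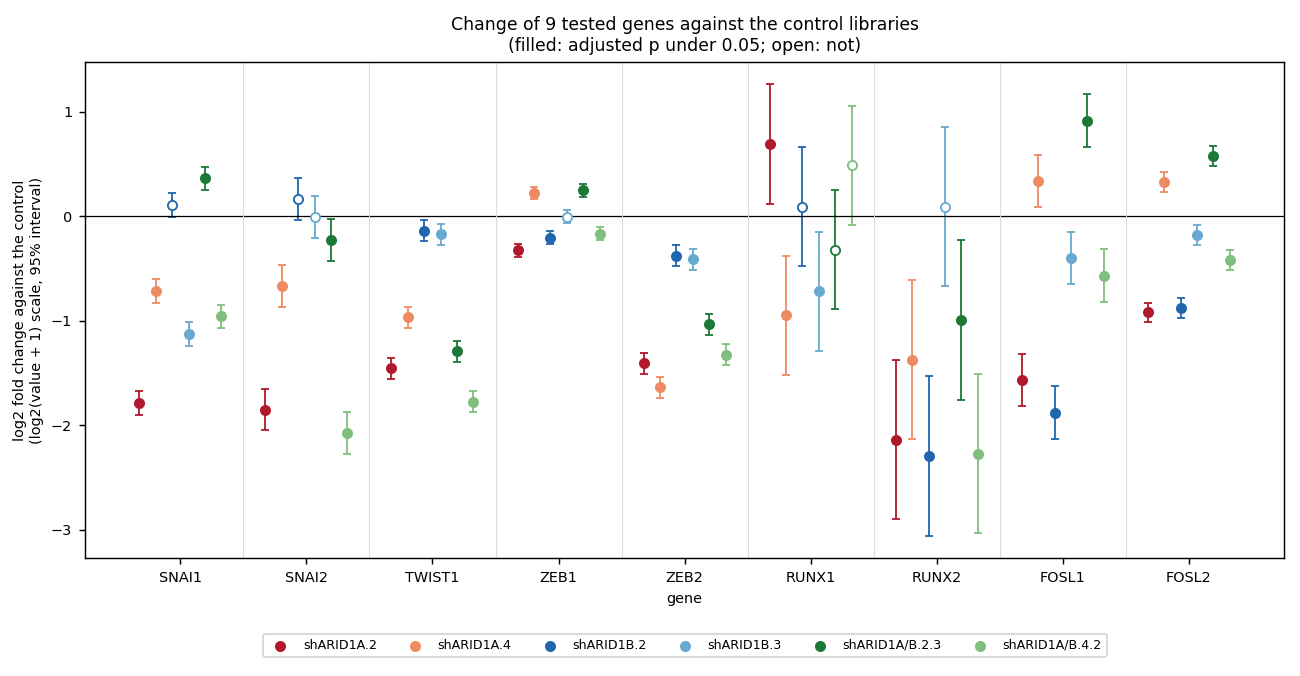
Log2 fold change against the control of the 9 tested factors in 6 silenced conditions, with 95% intervals from limma; filled points passed an adjusted p of 0.05 and open points did not. ZEB2 and TWIST1 are filled and below 0 throughout, and the intervals of RUNX1 and RUNX2, the genes with the fewest reads, are the widest.

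PRRX1 (chromosome 1, 170662728 to 170739419) was near the detection limit. It was at 0 in 17 of 21 libraries, the control included, and had at most 3 reads in the other 4, which are shARID1A.2 replicate 1, shARID1B.2 replicate 2, shARID1B.3 replicate 1 and shARID1A/B.2.3 replicate 3. A count of 0 allows up to 3 reads, a value of 2.32 to 3.57, for counting error only. It did not pass the filter on low values and no change was computed. PRRX2, its paralog, was expressed at 715 in the control.

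RUNX1 (chromosome 21, 34787801 to 36004667), known from blood and neural crest lineages, was low in every condition, at 6 to 38 reads per library. Its values were 16.4, 22.4 and 21.6 in the control, 30.8, 37.1 and 31.2 in shARID1A.2, and 16.5, 9.51 and 5.99 in shARID1A.4. The libraries of shARID1A.2, and those of shARID1A/B.4.2 at 25.29 to 30.97, lay above all control libraries. Those of shARID1B.3, at 10.95, 11.4 and 12.95, and of shARID1A/B.2.3, at 15.57 to 16.2, lay below them. RUNX1 rose by 0.69 in shARID1A.2 (adjusted p = 0.027, limma) and fell by 0.95 in shARID1A.4 (adjusted p = 0.0036) and by 0.72 in shARID1B.3 (adjusted p = 0.027), with a standard error of 0.28. The rise was not called without control replicate 1 (0.56) or shARID1A.2 replicate 2 (0.61), and the fall in shARID1B.3 not without control replicate 2 (-0.64) or 3 (-0.66) or shARID1B.3 replicate 1 (-0.67) or 2 (-0.70). The fall in shARID1A.4 was -0.63 without its replicate 3. DESeq2 on the recovered reads called neither the rise (adjusted p = 0.051) nor the fall in shARID1B.3 (adjusted p = 0.075). The difference between shARID1A.2 and shARID1A.4 was 1.64 (adjusted p = 9.40e-06, limma). In shARID1B.2, shARID1A/B.2.3 and shARID1A/B.4.2 the differences were 0.09, -0.32 and 0.49 and were not called.

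RUNX2 (chromosome 6, 45328157 to 45664349), the osteoblast regulator, had 2 to 27 reads per library. It had values of 27.0, 13.4 and 20.5 in the control, 4.15, 5.15 and 2.23 in shARID1A.2, and 8.74, 4.76 and 7.98 in shARID1A.4. It had 3.50, 3.47 and 2.67 in shARID1B.2 but 22.9, 17.1 and 23.3 in shARID1B.3. It had 8.10, 11.5 and 8.76 in shARID1A/B.2.3 and 4.55, 3.86 and 1.87 in shARID1A/B.4.2. The libraries of shARID1B.3 overlapped with the control, and all others lay below it. Mean reads were under 10 in 5 conditions, all but the control and shARID1B.3. RUNX2 thus passed the filter on low values mainly where it is high, so its falls are not independent of the filter. On the log2(value + 1) scale, which understates the change of such low genes, RUNX2 changed by -2.14 in shARID1A.2, -1.37 in shARID1A.4, -2.29 in shARID1B.2, -0.99 in shARID1A/B.2.3 and -2.27 in shARID1A/B.4.2 (standard error 0.37, adjusted p of at most 0.020, limma). The fall in shARID1A/B.2.3 was not called without control replicate 1 (-0.77) or 3 (-0.96) or without shARID1A/B.2.3 replicate 1 (-0.90) or 3 (-0.95). The difference of shARID1B.2 from shARID1B.3 was -2.38 (adjusted p = 3.55e-06, limma), and ARID1A was low in both.

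Start regions of 6 of the 10 factors were searched for motifs, and those of the other factors were not searched. The regions came from RefSeq sequences (GRCh38.p14), as 13 windows of 250 bases before an annotated start. They were searched on both strands for CACCTG or CAGGTG, the E-box form bound by SNAI and ZEB proteins, for TGANTCA, bound by AP-1, and for TGTGGT or ACCACA, bound by RUNX proteins, which were found in 17.5%, 6.57% and 11.0% of 35116 windows of the same length. Of the 13 windows, 1 held both an AP-1 and a RUNX motif, the distal start of RUNX2. Of the 7 windows of ZEB1, 2 held an E-box and 2 a RUNX motif. The distal start of RUNX2 is printed with its proximal start and the start of RUNX1, neither of which held a motif searched. These 3 windows were chosen because the values of these relatives in shARID1A.2 lay on opposite sides of the control. All are 5′ to 3′ in the direction of transcription, with matches to the motifs in capitals.
RUNX2 distal start, chr6:45328080-45328329, plus strand: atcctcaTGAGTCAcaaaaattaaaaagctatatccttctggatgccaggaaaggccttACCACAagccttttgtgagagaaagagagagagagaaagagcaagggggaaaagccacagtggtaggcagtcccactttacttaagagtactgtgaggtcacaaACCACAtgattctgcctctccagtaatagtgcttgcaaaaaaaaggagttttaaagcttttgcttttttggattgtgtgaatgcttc
RUNX2 proximal start, chr6:45422025-45422274, plus strand: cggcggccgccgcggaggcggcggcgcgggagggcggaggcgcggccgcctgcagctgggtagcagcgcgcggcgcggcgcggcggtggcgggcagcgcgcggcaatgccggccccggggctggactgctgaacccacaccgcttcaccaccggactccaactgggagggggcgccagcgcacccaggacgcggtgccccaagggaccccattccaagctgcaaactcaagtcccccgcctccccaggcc
RUNX1 start, chr21:34888700-34888949, minus strand: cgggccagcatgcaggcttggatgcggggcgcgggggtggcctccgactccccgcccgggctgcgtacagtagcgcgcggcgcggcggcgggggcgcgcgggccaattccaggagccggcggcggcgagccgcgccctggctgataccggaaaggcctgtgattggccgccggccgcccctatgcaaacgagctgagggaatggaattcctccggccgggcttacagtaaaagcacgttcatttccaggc
The distal window of RUNX2 held 1 AP-1 and 2 RUNX matches. A match is a stretch of letters and not a site shown to be bound, and reads were not assigned to either start of RUNX2. Whether the motifs bear on the levels was not tested. The RUNX1 window lies inside the annotated gene, which starts at 36004667 on the minus strand, so its most upstream start was not searched.

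FOSL1 (chromosome 11, 65892049 to 65900573), which encodes FRA1, an AP-1 subunit induced by growth signals, moved in both directions. It had 143, 133 and 146 in the control, 54.8, 43.3 and 43.4 in shARID1A.2, and 184, 164 and 187 in shARID1A.4. It had 41.1, 37.1 and 34.7 in shARID1B.2 and 90.6, 118 and 113 in shARID1B.3. It had 248, 278 and 274 in shARID1A/B.2.3 and 86.5, 100 and 97.4 in shARID1A/B.4.2. The libraries of shARID1A.4 and shARID1A/B.2.3 lay above every control library and the others below. FOSL1 fell by 1.56 in shARID1A.2, 1.88 in shARID1B.2, 0.40 in shARID1B.3 and 0.57 in shARID1A/B.4.2 and rose by 0.92 in shARID1A/B.2.3 (standard error 0.12, adjusted p of at most 0.0061, limma). It also rose by 0.34 in shARID1A.4 (adjusted p = 0.016, limma), a call lost without control replicate 2 (0.30) or shARID1A.4 replicate 3 (0.30), as the fall in shARID1B.3 was without its replicate 1 (-0.28).

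FOSL2 (chromosome 2, 28392448 to 28417312), which encodes the related subunit FRA2, stood above FOSL1 per kilobase of exon in the control and followed the same order but for its lowest conditions. It had 1206, 1139 and 1125 in the control, 601, 613 and 618 in shARID1A.2, and 1452, 1529 and 1384 in shARID1A.4. It had 612, 629 and 650 in shARID1B.2 and 973, 1082 and 1013 in shARID1B.3. It had 1791, 1709 and 1692 in shARID1A/B.2.3 and 834, 851 and 909 in shARID1A/B.4.2. Only shARID1A.2 and shARID1B.2 overlapped. FOSL2 fell by 0.92, 0.88, 0.18 and 0.42 in shARID1A.2, shARID1B.2, shARID1B.3 and shARID1A/B.4.2 and rose by 0.33 and 0.58 in shARID1A.4 and shARID1A/B.2.3 (standard error 0.05, adjusted p of at most 0.0015, limma). For FOSL1 the conditions of 1 label differed by -1.90, -1.48 and 1.48 and for FOSL2 by -1.25, -0.70 and 1.001, each called, in the pairs and order given for SNAI1.

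**Figure D3:**
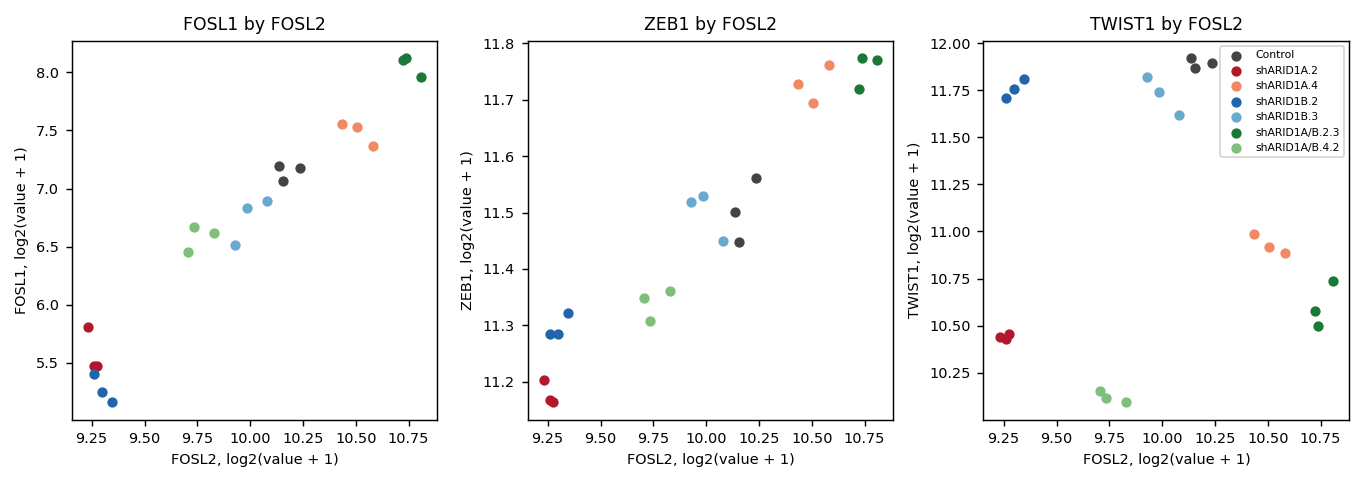
FOSL1, ZEB1 and TWIST1 plotted against FOSL2 as log2(value + 1), each point 1 of 21 libraries coloured by condition. FOSL1 and ZEB1 rise with FOSL2 from shARID1A.2 and shARID1B.2 to shARID1A/B.2.3, and TWIST1 does not.

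In the control, per kilobase of all annotated exons, TWIST1 stood highest at 1874 ± 33.9 (SD over 3 libraries), followed by SNAI1 with 398 ± 15.2, ZEB1 with 336 ± 13.3, SNAI2 with 185 ± 5.96 and FOSL2 with 162 ± 6.08. ZEB2 had 89.1 ± 0.748 and FOSL1 74.6 ± 3.55, whereas RUNX2 with 2.48 ± 0.829 and RUNX1 with 1.29 ± 0.207 were far lower. ZEB2 and RUNX1 have long annotated exons in all, which lowers their values on this scale.

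Averages over both conditions of a label were compared directly. Against the libraries labelled shARID1B, those labelled shARID1A differed by -1.06 for TWIST1, -1.13 for ZEB2 and -1.34 for SNAI2, and those labelled shARID1A/B by -1.38, -0.78 and -1.23. With the 6 libraries of a label as 1 group, so that the spread between its conditions counts as error, these 6 differences were still called (adjusted p = 3.31e-06, 9.87e-09, 0.011, 7.83e-08, 4.37e-07 and 0.015 in the same order, limma). The 6 libraries are 3 from each condition and not 6 independent samples, so every adjusted p from fits with 1 group per label overstates the evidence. FOSL1 was higher by 1.31 under the label shARID1A/B than under shARID1B, also called with 1 group per label (adjusted p = 0.040, limma). This averages opposite changes against the control, 0.92 in shARID1A/B.2.3 and -0.57 in shARID1A/B.4.2. FOSL1 in shARID1A/B.4.2, with a mean of 94.8, overlapped with shARID1B.3, with 107. For SNAI2 the label shARID1A/B likewise averages -0.23 and -2.07. By conditions, 8 of the 9 factors were called between the labels shARID1A and shARID1B (67.3% of genes tested), 6 between shARID1A and shARID1A/B (59.2%) and 7 between shARID1A/B and shARID1B (70.2%). The calls of RUNX2 (-0.65) and ZEB1 (0.05) between the labels shARID1A and shARID1B were lost with edgeR (-0.63 and 0.05). That of RUNX2 was also lost without shARID1A.2 replicate 3 (-0.52), shARID1A.4 replicate 2 (-0.54), shARID1B.2 replicate 1 (-0.63) or 2 (-0.63) or shARID1B.3 replicate 1 (-0.62) or 3 (-0.61), and that of ZEB1 without shARID1A.2 replicate 1 (0.048), shARID1A.4 replicate 2 (0.046), shARID1B.2 replicate 1 (0.051) or 2 (0.051) or shARID1B.3 replicate 2 (0.042). With 1 group per label the numbers were 3, 1 and 4, and the 1 gene was ZEB2, lower by 0.34 in the libraries labelled shARID1A than in those labelled shARID1A/B.

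Between conditions of 1 label, 8 of the 9 factors were called for shARID1A.2 against shARID1A.4 (75.8% of genes tested), 6 for shARID1B.2 against shARID1B.3 (66.0%) and 9 for shARID1A/B.2.3 against shARID1A/B.4.2 (74.9%). TWIST1 differed by -0.49, 0.03 and 0.48 in these comparisons, the second not called (0.14 and called with scaling to total reads), and ZEB2 by 0.23, 0.04 and 0.29. The factors with differences over 1 in size in some pair were SNAI1, SNAI2, RUNX1, RUNX2, FOSL1 and FOSL2. RUNX1 differed by 0.81 between shARID1B.2 and shARID1B.3, a call lost without shARID1B.2 replicate 2 (0.66). With shARID1A.2 replicate 2 or shARID1A.4 replicate 2 left out, RUNX2 became called between shARID1A.2 and shARID1A.4 (-0.96 and -0.9998), and SNAI2 between shARID1B.2 and shARID1B.3 without shARID1B.3 replicate 2 (0.27). Among all calls the share of lower genes was 49.3%, 50.04% and 50.4% in the 3 comparisons and 39.2%, 39.2% and 61.4% with scaling to total reads.

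As both transcripts were low in the libraries labelled shARID1A, their log2 change was set against the sum of those in the libraries with the other labels. The targets were not equally low. ARID1B changed by -1.37 and -0.90 in shARID1A.2 and shARID1A.4, and by -1.16 and -1.60 in shARID1A/B.2.3 and shARID1A/B.4.2. ARID1A changed by -1.56 and -1.49 in shARID1A.2 and shARID1A.4, and by -1.72 and -1.35 in shARID1B.2 and shARID1B.3. The part of this in the departures was not tested. The departure was -0.44 for SNAI1, 0.48 for TWIST1, 0.35 for FOSL1 and 0.15 for FOSL2, which were called (43.8% of genes tested were), a negative value meaning that the change was lower than the sum. It was 0.05 for ZEB2 (95% interval -0.06 to 0.16) and -0.19 for SNAI2 (-0.41 to 0.04), not called. The call of FOSL1 was lost with edgeR (0.32, adjusted p = 0.051) and DESeq2 (0.36, adjusted p = 0.089) and that of FOSL2 with edgeR (0.11, adjusted p = 0.081), and edgeR called RUNX2 (1.146, adjusted p = 0.036). With 1 group per label limma called 0 of the 9, and 1 at an unadjusted p under 0.05. With the conditions kept and control replicate 1 left out, the calls of FOSL1 (0.34) and FOSL2 (0.12) were lost. That of FOSL1 was lost in 10 of the fits with 1 library left out, with departures of 0.29 to 0.34: without control replicate 1 or 3, shARID1A.2 replicate 1, shARID1A.4 replicate 1 or 3, shARID1B.2 replicate 2 or 3, shARID1B.3 replicate 1, shARID1A/B.2.3 replicate 1 or shARID1A/B.4.2 replicate 1. With scaling to total reads both were lost (0.25 and 0.05), and the share of lower genes among all calls went from 38.5% to 60.7%. Calls were gained for RUNX2 (0.98) without control replicate 2 (1.24), shARID1A.2 replicate 3 (1.11), shARID1A.4 replicate 2 (1.096) or shARID1A/B.4.2 replicate 1 (1.07), and for SNAI2 without shARID1B.3 replicate 1 (-0.25).

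**Figure D4:**
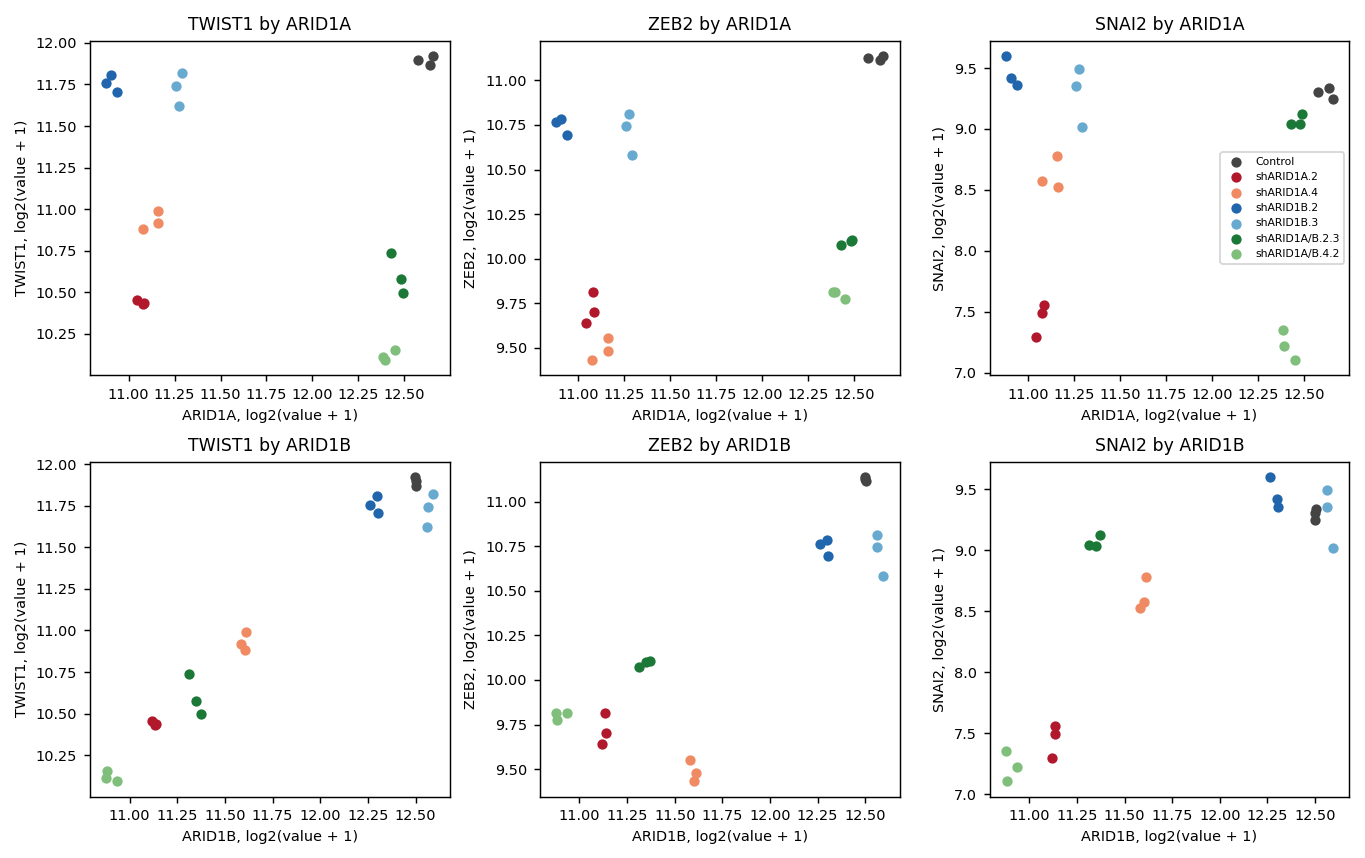
TWIST1, ZEB2 and SNAI2 plotted against ARID1A in the upper row and ARID1B in the lower row, as log2(value + 1), each point 1 of 21 libraries coloured by condition. The libraries labelled shARID1B, low in ARID1A, stay near the control in TWIST1 and SNAI2. Among the 4 conditions low in ARID1B, the order of TWIST1 is that of ARID1B. The order of ZEB2, lowest in shARID1A.4, and that of SNAI2, higher in shARID1A/B.2.3 than in shARID1A.4, are not.

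Likeness of patterns was measured by Pearson's r of log2(value + 1) over the 21 libraries, which are 7 conditions of 3, so that r mostly compares 7 levels scaled by the same size factors. It is a description and has no p. Among all genes tested, those most like TWIST1 over the libraries were ARID1B (r = 0.9855), HNRNPR (0.9853) and NIPA2 (0.98). Over the 7 means HNRNPR (0.98991) stood just above ARID1B (0.98985). ZEB2 was most like CPXM1 (0.99), S1PR3 (0.98) and AEBP1 (0.98), and SNAI2 most like COL1A1 (0.99), DPYSL4 (0.98) and FBXL17 (0.97). SNAI1 was most like RHOB, HTRA1 and TNS3 (0.97, 0.96 and 0.93). For FOSL1 they were DUSP4, PXN and B4GALNT1 (0.98 each), and for FOSL2 DUSP4, PXN and AEN (0.996, 0.991 and 0.989). ZEB1 was most like VPS18, PCDHB6 and ARPC5L (each 0.98), RUNX1 like EXPH5, STAT2 and SERP2 (0.92, 0.92 and 0.91) and RUNX2 like LIMS1, WDR6 and CTNNA2 (0.94, 0.93 and 0.92). Among the factors, the most alike were FOSL1 and FOSL2 (0.97), ZEB1 and FOSL2 (0.96), TWIST1 and ZEB2 (0.85) and SNAI2 and TWIST1 (0.84).

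Relatives and partners of the factors came from a list of 13 genes, of which 10 were tested. In shARID1A.2 and then shARID1A.4, 9 and 6 fell and 1 and 3 rose, in shARID1B.2 and then shARID1B.3, 7 and 4 fell and 3 and 4 rose, and in shARID1A/B.2.3 and then shARID1A/B.4.2, 8 and 7 fell and 0 and 3 rose. The 0 was also 0 at an unadjusted p under 0.05, with edgeR and with DESeq2. Over all genes tested, 32.0% to 38.2% were called lower and 31.6% to 37.9% higher in these comparisons. The counts of the lists below follow the same order of conditions. TCF4 and TCF12, E proteins that pair with TWIST1, fell in all 6 conditions, TCF4 by 0.27 to 1.63 and TCF12 by 0.12 to 1.07. CBFB, the partner of RUNX1 and RUNX2, fell by 1.44 in shARID1A.2 and 1.68 in shARID1A/B.4.2 and rose by 0.70 in shARID1B.3. FOS fell by 1.66 in shARID1A.2 and 1.85 in shARID1A/B.4.2 and, unlike FOSL1 and FOSL2, fell in shARID1A/B.2.3, by 0.50. PRRX2 fell by 1.10 in shARID1A.2 and 1.24 in shARID1A/B.4.2 and rose by 0.18 in shARID1B.2.

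Of 20 tested among 23 other transcription regulators linked to the mesenchymal neuroblastoma state, 14, 15, 13, 14, 14 and 11 fell and 3, 2, 2, 4, 2 and 3 rose. AEBP1 fell by 0.53 to 2.15, NOTCH2, a receptor that drives this state, by 0.15 to 1.51, IFI16, a DNA sensor, by 0.25 to 1.33, and NR3C1, the glucocorticoid receptor, by 0.45 to 1.28. ID1, an inhibitor of basic helix-loop-helix factors, rose in all 6 conditions, by 0.31 to 1.18. The counts stand beside 32.0% to 38.2% of all genes tested called lower and 31.6% to 37.9% called higher. The median of these 20 genes lay between -0.67 and -0.26, beside 0.01 to 0.02 for all genes.

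All 24 mesenchymal effector genes of the list were tested, and 18, 22, 14, 20, 18 and 15 fell and 6, 1, 5, 0, 5 and 6 rose, with medians of -1.19 to -0.42. The 0 was also 0 in limma at an unadjusted p under 0.05 and with DESeq2, and 1 with edgeR. Over all genes tested, 32.0% to 38.2% were called lower and 31.6% to 37.9% higher in these comparisons. LOXL2, a lysyl oxidase, fell by 1.64 to 2.83, TGFBI by 1.05 to 2.79, the cadherin gene CDH11 by 0.50 to 2.64 and TNC, which encodes tenascin C, by 0.50 to 2.22 in the 6 conditions. THY1 fell by 2.83 in shARID1A.4 but rose by 0.64 in shARID1A/B.4.2. The list shares 6 genes with the fibroblast markers, including COL1A1, COL1A2 and PDGFRB, and of those markers 8 were tested, of which 5, 7, 3, 4, 7 and 6 fell and 3, 0, 3, 1, 0 and 1 rose, the zeros being 0 also at an unadjusted p under 0.05, with edgeR and with DESeq2.

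Of 22 epithelial genes known as targets of SNAI and ZEB repressors, 11 were tested, of which 3, 5, 3, 4, 3 and 3 fell and 5, 3, 4, 2, 2 and 4 rose, beside 32.0% to 38.2% of all genes tested called lower and 31.6% to 37.9% called higher in these comparisons. CDH1 itself was too low to test. EPCAM rose in 5 conditions, by 0.67 to 1.69, and was -0.12 in shARID1A/B.2.3, not called. CLDN4, a tight junction gene, fell in 5, with changes from -2.99 to -1.56, and KRT19 in 5, from -1.64 to -0.97. PATJ, a polarity gene, rose in 5, by 0.30 to 0.76. KRT18 fell by 1.54 in shARID1A.4 and rose by 1.45 in shARID1B.2.

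The 14 adrenergic transcription factors were all tested, and 9, 7, 10, 9, 7 and 8 fell and 5, 6, 4, 3, 7 and 3 rose, with medians of -0.45 to 0.01. These counts stand beside 32.0% to 38.2% of all genes tested called lower and 31.6% to 37.9% called higher. HAND2, ISL1 and SOX11 fell in all 6 conditions, HAND2 by 0.17 to 1.70, ISL1 by 0.34 to 1.22 and SOX11 by 0.49 to 0.97. The lists overlap in part with what the study reports on, and no test of a list was made. With scaling to total reads the called direction turned for ELK4 in shARID1A.2 and for TBX2 and COL3A1 in shARID1A/B.4.2, and for no other called gene of these lists.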

How the data were processed

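Stranded mRNA libraries (21) made from total RNA of SK-N-BE(2) cells were sequenced, and per the submitters' notes the authors used STAR 2.5.3a, RSEM 1.3.0, DESeq2 1.26.0 and GRCh38. The deposited signal values are reads that the authors divided by 1 size factor per library. Multiplied back, 100% of values were whole reads within 0.02 read. The deposited tables of comparisons hold the authors' fold changes and p-values and were not used.

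Genes were filtered with filterByExpr on the recovered reads (edgeR 4.0.16), leaving 18584, and log2(value + 1) was fitted over 7 conditions with limma 3.58.1 in R 4.3.3, with Benjamini-Hochberg adjustment. On data simulated for shARID1A.2 against Control over 17952 genes, limma found 94 of 100 genes changed by 1 and 100 of 100 changed by 1.5 on the log2 scale, with 11 false calls. The changed genes were few, not of low value and in 1 condition, and the size factors were known. In the data 14142 of 18584 genes were called in this comparison. These rates therefore need not hold there, nor for genes of low value such as RUNX2. Alternatives were edgeR, DESeq2 1.42.0, pseudocounts of 0.5 and 5, other filters, scaling to total reads, fewer libraries, 1 group per label and a replicate block. Same-numbered libraries did not deviate together. Coordinates are from GENCODE 29, where 58541 of 60728 identifiers matched without their version. The members and lists were chosen with earlier results of these data known. Named list genes were the 5 of each list called in the most conditions and then with the largest change. Some genes that this rule names are not reported here.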

Additional observations from a re-analysis of the deposited data

Results flagged for a closer look

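PRRX1 had 1 library above 0 among the 6 labelled shARID1A and 1 among the 6 labelled shARID1A/B, so that the gap to the nearest library was the whole range (ratio 1, critical value 0.625). In both the library had at most 2 reads, and 30 groups of 6 were looked at. For a gene at 0 in 17 of 21 libraries any group with exactly 1 library above 0 gives this ratio, so the usual chance rate of the critical value, about 1 group in 20, does not hold.

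The libraries labelled shARID1A against shARID1B differed by more than 1 on the log2 scale for SNAI2 (-1.34), TWIST1 (-1.06) and ZEB2 (-1.13). Those labelled shARID1A/B against shARID1B did so for SNAI2 (-1.23), TWIST1 (-1.38) and FOSL1 (1.31). All were also called with 1 group per label, a fit that takes the 6 libraries of a label as independent. For SNAI2 and FOSL1 the label shARID1A/B averages conditions that are unlike, as given above.

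Conditions that carry the same label also differed by more than 1, each called by limma. For shARID1A.2 against shARID1A.4 these were SNAI1 (-1.07), SNAI2 (-1.18), RUNX1 (1.64), FOSL1 (-1.90) and FOSL2 (-1.25). For shARID1B.2 against shARID1B.3 they were SNAI1 (1.24), RUNX2 (-2.38) and FOSL1 (-1.48). For shARID1A/B.2.3 against shARID1A/B.4.2 they were SNAI1 (1.32), SNAI2 (1.84), RUNX2 (1.28), FOSL1 (1.48) and FOSL2 (1.001).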

How the results depend on the processing

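Of 1608 refits of the 54 fold changes against the control, 1562 kept the direction and the side of the threshold, and 39 of the 54 did so in every refit. With 1 group per label the number of factors called fell from 8 to 3 between the labels shARID1A and shARID1B, from 6 to 1 between shARID1A and shARID1A/B, from 7 to 4 between shARID1A/B and shARID1B, and from 4 to 0 for the departure from the sum, since the spread between conditions then counts as error. All genes called fell from 12510, 11000, 13039 and 8148 to 3980, 1731, 5177 and 173. The fit with 1 group per label takes the 6 libraries of a label as independent, though they are 3 from each condition.

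Directions turned for small differences, and the cause was not tested. SNAI2 in shARID1B.3 was 0.034 with edgeR, 0.0077 with DESeq2 and 0.019 with scaling to total reads, and ZEB1 there was 0.023 with edgeR and 0.025 with that scaling. ZEB1 in shARID1A/B.4.2 was 0.023 with that scaling. The departure of ZEB1 was -0.023 with edgeR and -0.085 with that scaling, and that of ZEB2 -0.045 with that scaling. With 1 library left out, the ranges that crossed 0 were -0.060 to 0.30 for RUNX1 in shARID1B.2, -0.11 to 0.13 for SNAI2, -0.032 to 0.025 for ZEB1 and -0.16 to 0.31 for RUNX2 in shARID1B.3, -0.26 to 0.011 for RUNX2 between the labels shARID1A and shARID1A/B, -0.022 to 0.078 for TWIST1 and -0.030 to 0.085 for ZEB2 between shARID1B.2 and shARID1B.3, and -0.018 to 0.039 for ZEB1 and -0.071 to 0.26 for RUNX1 in the departure. The factors called for the departure then numbered 2 to 5.

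Replicate numbers did not pair the libraries: the correlation of deviations of same-numbered libraries was -0.191 to 0.141, over 0.1 in 2 of 63. The replicate block left 142 of 143 results as they were and took the adjusted p of the departure of FOSL1 to 0.051. Depth limits RUNX1, RUNX2 and PRRX1 most.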
